A study of Zeugodacus cucurbitae with 6 samples.

Results

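The genes described here are those of the melon fly, *Z. cucurbitae*, whose names mark them as parts of mitochondrial respiration, protein import or the mitochondrial ribosome. They were chosen by name, with earlier results of these data known. Every gene identifier starting with a symbol stem of respiratory chain subunits, import translocases (Tim and Tom) or mitochondrial ribosomal proteins (Mrpl, Mrps) was taken. The stems matched 7 of the 12834 genes in the deposited table. They were *Cox10_0* in the respiratory chain group, *Tim14*, *Tim22*, *Tom40_1* and *Tom1l2_0* in the import group, and *Mrpl2_0* and *Mrpl4_2* in the ribosome group. The table gives a symbol to 1033 genes and only a number to the other 11801, so genes of these complexes that carry a number were not analysed here. The label fits the members only in part. *Cox10* encodes an assembly enzyme and no structural subunit of the chain was among the members, and *Tom1l2* belongs to the Tom1 family of endosomal sorting proteins, which shares its first letters with the translocase but is not known as an import factor. Mitochondrially encoded genes were not analysed here.

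Larvae of the 3rd instar were compared in 2 groups. The irradiated group came from eggs of 25 h exposed to gamma rays of radioactive cobalt at 50 Gy and 1.0 Gy per minute, and the non-irradiated group came from eggs at 0 Gy. Both came from a colony kept in an insectary, and the hatched larvae ate the same artificial diet. Each group had 3 replicates, each with its own Petri dishes of eggs and a pool of 20 whole larvae, and the sex of the larvae is not given in the sources used here. A pool of whole larvae mixes all tissues, so fewer cells of a type and less RNA per cell cannot be told apart.

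Total counts on genes were 17191722, 18311658 and 17701282 in the irradiated libraries and 13192748, 14115043 and 16344295 in the non-irradiated libraries. Irradiated replicates 1 and 2 were far more alike than any other pair. Their Spearman correlation across genes was 0.996, against 0.928 to 0.977 in the other 14 pairs. Over genes, the squared difference of their counts averaged 2.86 times what counting error gives, against 88.4 to 298 times in the other pairs. The pair was not identical within counting error, and both were kept as the replicates they are labelled to be. This cannot show that they are separate pools, since libraries of 1 pool can also differ by more than counting error. The values of *Tim14* and *Tim22* are repeated after adding the counts of this pair together.

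Mitochondria make most of the ATP of an animal cell through a chain of protein complexes in their inner membrane. Nearly all proteins of the organelle are encoded in the nucleus, made in the cytosol, and carried in through the TOM complex of the outer membrane and the TIM complexes of the inner membrane. A separate ribosome in the matrix translates the few messages of mitochondrial DNA, most of them for subunits of the respiratory chain. Insect larvae depend on this machinery while they feed and grow.

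In these larvae, *Tim14* was the member whose level differed most between the groups, with lower values in all 3 irradiated libraries. *Tim22* also averaged less in the irradiated libraries, but its groups overlapped. *Cox10_0*, *Mrpl2_0* and *Tom1l2_0* had fitted folds of 1.03, 0.997 and 1.01, and *Tom40_1* and *Mrpl4_2* were near silent. Of the 7 members, 5 passed the filter on low counts and were tested. None of the 5 had an adjusted p under 0.05 in the quasi-likelihood test of edgeR (Benjamini-Hochberg, over all 9768 tested genes), where 2.14% were higher and 1.60% were lower at that threshold. DESeq2 called 1 of the 5, *Tim14*, with lower values, where it called 4.25% of 11305 genes with an adjusted p lower. Limma on log2 FPKM called 0. Over all 9768 genes, limma called 242 on log2(FPKM + 1) and 292 on log2(FPKM + 0.1). At an unadjusted p under 0.05, 1 of the 5 members passed, against 21.0% of all tested genes, so that this count does not set the members apart. The paper's methods set other criteria, namely a p under 0.05 without adjustment, a log2 change of 0.58 or more in size, and 1 library or more above 1 FPKM. The paper applied them to the test of another R package. Here they were applied to the edgeR test, so genes said to meet them are not the paper's own calls. By these, 1 member was called, with lower values, against 11.6% of all tested genes called in either direction and 5.58% called lower. The median log2 fold change was -0.0039 over the 5 members and -0.01 over all tested genes.

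*Tim14* encodes the J-domain protein of the import motor at the inner membrane, which in yeast stimulates the matrix chaperone that pulls precursors into the organelle. Its counts were 64, 57 and 89 in the irradiated libraries, against 107, 78 and 130 in the non-irradiated libraries. Scaled to gene length and library total, these are 5.74, 4.80 and 7.76 FPKM in the irradiated libraries and 12.5, 8.53 and 12.3 FPKM in the non-irradiated libraries. Every irradiated value was below every non-irradiated value, with irradiated replicate 3 and non-irradiated replicate 2 lying closest to each other. Such separation, with irradiated lower, was found in 13.4% of all tested genes.

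After normalization, *Tim14* averaged 3.97 ± 0.947 CPM (counts scaled to the normalized library size) in the irradiated libraries and 7.12 ± 1.15 CPM in the non-irradiated libraries (SD, n = 3 libraries each). On the log2 scale this was a difference of -0.84 with a standard error of 0.23, which is 0.558 of the non-irradiated level with a 95% interval from 0.383 to 0.812. The unadjusted p was 0.00793 and the adjusted p was 0.0978 in edgeR's quasi-likelihood test, and *Tim14* ranked 792 of 9768 by p. Permuting the 6 libraries exactly gave a two-sided p of 0.10, the smallest that 3 libraries against 3 allow. DESeq2 put *Tim14* past an adjusted p of 0.05, at 0.0465, where 4.25% of the genes with an adjusted p were called lower. With the counts of irradiated replicates 1 and 2 added together, edgeR gave a log2 fold change of -0.76, an unadjusted p of 0.0269 and an adjusted p of 0.268.

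**Figure D1:**
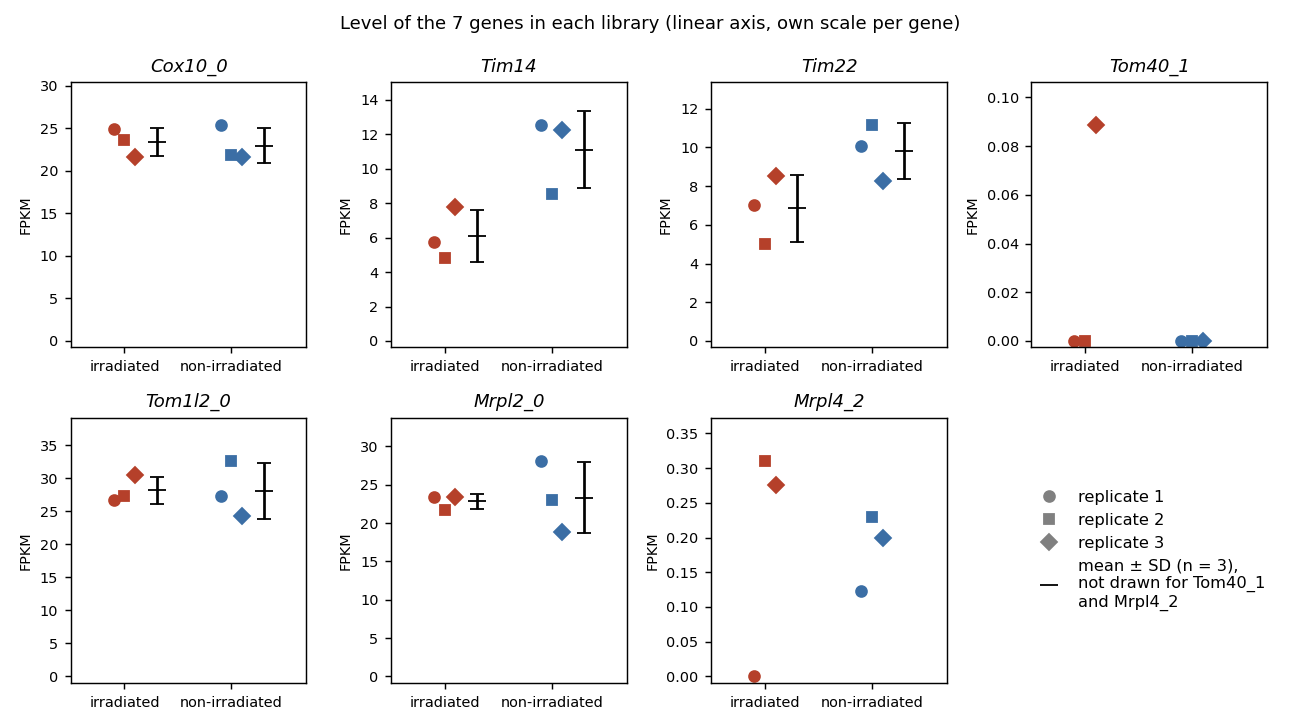
FPKM of each member (vertical axis, linear, own scale per gene) in the 3 irradiated and the 3 non-irradiated libraries, with 1 symbol per library and the mean ± SD beside the points for the 5 tested genes. Tim14 lay between 4.80 and 7.76 FPKM in the irradiated libraries and between 8.53 and 12.5 FPKM in the non-irradiated libraries, whereas the groups overlapped for the other members.

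*Tim14* had 210 counts in all in the irradiated libraries and 315 in the non-irradiated libraries. For its mean of 70 and 105 counts per library, counting error alone gives a coefficient of variation of 12.0% and 9.76%. The observed coefficient of variation of its FPKM was larger, 24.7% among the irradiated libraries and 20.1% among the non-irradiated libraries. The ratio of the summed counts, scaled by the library totals, was 0.547, with exact binomial 95% bounds of 0.457 and 0.653 that hold only the error of counting. In the gene order of assembly idZeuCucr1.2, no gene overlapped *Tim14*. Its neighbours LOC114803674 and *Mob2_0* had log2 fold changes of -0.01 and 0.04 (adjusted p = 0.981 and 0.874 in edgeR).

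Because mitochondria are abundant in muscle, marker genes of tissues were followed beside *Tim14*. Of 5 muscle genes found in the table, 4 were tested, 0 were called by either rule, and the median log2 fold change was -0.25. Their summed level was 6318 to 8986 CPM in the irradiated libraries and 7512 to 10318 CPM in the non-irradiated libraries. The fat body list held *Lsd-1* and *Lsd-2*, with a median of -0.24, 0 calls, and a summed level of 694 to 732 CPM in the irradiated libraries and 576 to 1244 CPM in the non-irradiated libraries. The nervous system list held *Appl_2*, *Sh_1* and *Syt1_0*, at a summed 2.03 to 7.52 CPM in the irradiated libraries and 6.82 to 12.3 CPM in the non-irradiated libraries. *Appl_2*, the fly relative of the amyloid precursor gene, met the paper's criteria with a log2 fold change of -1.33 (adjusted p = 0.18 in edgeR). It was above 1 FPKM only in non-irradiated replicate 1, at 1.26 FPKM, so it passed only through the group where it was higher. These criteria called 5.58% of all tested genes lower. Neither *Sh_1* nor *Syt1_0* met them, and the median of that list was -0.34. No marker with a symbol of the testis list was found. None of the tissue markers found was at 0 over all libraries, and *Zasp52_11* had too few counts to be tested. The part of tissue composition in the *Tim14* values was not tested.

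*Tim22* encodes the channel of the carrier translocase, which inserts metabolite carriers and other polytopic proteins into the inner membrane. Its counts were 109, 83 and 136 in the irradiated libraries, against 120, 142 and 122 in the non-irradiated libraries. In normalized CPM the irradiated libraries had 6.40, 4.59 and 7.66, and the non-irradiated libraries had 8.35, 10.6 and 7.57. Irradiated replicates 1 and 2 lay below all non-irradiated libraries, and irradiated replicate 3 lay just above non-irradiated replicate 3.

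The means of *Tim22* were 6.22 ± 1.54 CPM in the irradiated libraries and 8.85 ± 1.60 CPM in the non-irradiated libraries (SD, n = 3 libraries each). The log2 fold change was -0.51 with a standard error of 0.23, an unadjusted p of 0.0644 and an adjusted p of 0.271 in edgeR's quasi-likelihood test. The 95% interval of the fold ran from 0.481 to 1.03, which includes an equal level. By exact permutation of the libraries, *Tim22* had a two-sided p of 0.20. With the counts of irradiated replicates 1 and 2 added together, its log2 fold change was -0.43 (unadjusted p = 0.128, adjusted p = 0.482 in edgeR). Its log2 fold change moved with single libraries, from -0.33 without irradiated replicate 2 to -0.68 when irradiated replicate 3 was left out, and it was -0.35 when non-irradiated replicate 2 was. Of the 6 libraries left out in turn, only irradiated replicate 3 made *Tim22* meet the paper's criteria (unadjusted p = 0.0296, adjusted p = 0.249 in edgeR). The neighbours *Gos28_0* and LOC105215679 had log2 fold changes of 0.20 and 0.04 (adjusted p = 0.453 and 0.892 in edgeR), and no gene overlapped *Tim22* in that assembly.

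Per unit of length, both inner membrane translocase genes were of moderate and similar level. *Tim14* averaged 6.10 ± 1.51 FPKM in the irradiated libraries and 11.1 ± 2.24 FPKM in the non-irradiated libraries. *Tim22* averaged 6.84 ± 1.75 FPKM in the irradiated libraries and 9.82 ± 1.45 FPKM in the non-irradiated libraries (SD, n = 3 libraries each). The means of *Tim14* and *Tim22* lay within 1 SD of each other in both groups. Averaged over all 6 libraries, *Tim14* was above 64.4% and *Tim22* above 63.9% of all genes in the table.

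*Tom40_1* carries the name of the pore of the outer membrane, through which nearly all precursors pass. It had 0, 0 and 2 counts in the irradiated libraries and 0 in each non-irradiated library. A count of 0 allows up to 3 counts. This is 0.164 to 0.175 CPM in irradiated replicates 1 and 2, and 0.184 to 0.227 CPM in the non-irradiated libraries. Irradiated replicate 3 had only 2 counts, so both groups were near the detection limit and no fold is given. In *Drosophila melanogaster*, a further gene for this pore is known that acts mainly in the male germ line. Whether *Tom40_1* is its counterpart was not tested, since no sequences were compared. In assembly idZeuCucr1.2, 5 of the 7 members overlap another gene, and since the use of strand in counting is not given, reads of such genes may not have been told apart. *Tom40_1* overlaps LOC105216784, which had a log2 fold change of -0.64 and met the paper's criteria (adjusted p = 0.115 in edgeR).

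*Tom1l2_0*, the endosomal sorting gene, had the highest mean FPKM of the members. It had 26.7, 27.3 and 30.5 FPKM in the irradiated libraries, against 27.3, 32.6 and 24.2 FPKM in the non-irradiated libraries. The irradiated values lay within the range of the non-irradiated ones. In normalized counts the means were 72.3 ± 4.65 CPM in the irradiated and 71.7 ± 14.3 CPM in the non-irradiated libraries (SD, n = 3 libraries each). The log2 fold change of 0.01 had a 95% interval from -0.37 to 0.40 (adjusted p = 0.971 in edgeR), and its sign changed when some libraries were left out. LOC105211031, which overlaps it in assembly idZeuCucr1.2, had a log2 fold change of 0.37 (adjusted p = 0.17 in edgeR).

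*Cox10* encodes the enzyme that adds a farnesyl tail to heme on the way to heme A, the cofactor of cytochrome c oxidase. *Cox10_0* had 24.9, 23.6 and 21.7 FPKM in the irradiated libraries, against 25.3, 21.9 and 21.6 FPKM in the non-irradiated libraries. The groups overlapped over most of their range. The means were 32.9 ± 2.51 normalized CPM in the irradiated and 31.8 ± 1.02 normalized CPM in the non-irradiated libraries (SD, n = 3 libraries each). On the log2 scale *Cox10_0* differed by 0.05 with a standard error of 0.10 (adjusted p = 0.839 in edgeR), and the 95% interval of the fold ran from 0.871 to 1.23. Folds within these bounds remain compatible with these libraries, and the smallest detectable fold was not computed. *Cox10_0* overlaps LOC105219934 in assembly idZeuCucr1.2, and that gene had a log2 fold change of -0.17 (adjusted p = 0.591 in edgeR).

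*Mrpl2_0* is named for a core protein of the large subunit of the mitochondrial ribosome, which contacts the catalytic centre. It had 23.4, 21.8 and 23.5 FPKM in the irradiated libraries, against 28.1, 23.0 and 18.9 FPKM in the non-irradiated libraries. All irradiated values lay inside the non-irradiated range. The coefficient of variation was 4.20% among the irradiated libraries and 19.9% among the non-irradiated libraries. The medians over 9743 genes with at least 60 counts in all were 11.0% and 19.3%, and the irradiated value includes the pair that was nearly alike. The log2 fold change of *Mrpl2_0* was -0.0039 with a standard error of 0.14 (adjusted p = 0.991 in edgeR), and the 95% interval of the fold ran from 0.798 to 1.25. LOC105208393, which overlaps it in assembly idZeuCucr1.2, had a log2 fold change of 0.27 (adjusted p = 0.38 in edgeR).

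*Mrpl4_2* is named for another protein of the large subunit, but had only 0, 7 and 6 counts in the irradiated libraries and 2, 4 and 4 in the non-irradiated libraries. It stood above 19.8% of all genes by mean FPKM, where *Mrpl2_0* stood above 80.2%. The ratio of the summed counts, 13 in the irradiated libraries against 10 in the non-irradiated libraries and scaled by library totals, was 1.07, with exact binomial 95% bounds of 0.432 and 2.72. This depth cannot show a difference. An overlapping gene in assembly idZeuCucr1.2, LOC105218187, had 10.5 ± 0.840 CPM in the irradiated and 10.5 ± 1.65 CPM in the non-irradiated libraries (SD, n = 3 libraries each).

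Other genes whose symbols name a mitochondrial function were followed beside the members. Lists of symbols for the surrounding pathways found few genes in this table. The 31 symbols of coenzyme Q and electron carriers gave 4 genes, and the 30 of the tricarboxylic acid cycle gave 2. The 27 of chaperones and proteases gave 1 gene, and the 15 of dynamics gave 1. The 18 symbols of mitochondrial DNA and its transcription gave 0 genes, and the 27 of translation factors with tRNA synthetases gave 0. These 8 genes were joined with 17 more that were picked by symbol from the table, which gives 25 genes. Of these, 22 were tested, 0 passed edgeR's test after adjustment, 0 passed DESeq2 or limma, 3 had an unadjusted p under 0.05 in edgeR, and 1 met the paper's criteria. For the last 2 counts the shares over all tested genes were 21.0% and 11.6%, so neither sets these genes apart. At an adjusted p under 0.05, edgeR called 365 of 9768 genes, DESeq2 1034 of 11305 and limma 242 or 292 of 9768. The groups did not overlap in 5 of the 22, with irradiated lower in 4 (*Slc25a3_3*, *Brp44l*, *Scsalpha_1* and *Sod2_1*), against 13.4% of all tested genes, and higher in 1 (*Pdk*), against 15.0%. Values were below 0 in 14 and above 0 in 8 of them on the log2 scale, with a median of -0.14 against -0.01 over all tested genes. The share of all tested genes below 0 was not computed, and a shift of the list was not tested.

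The gene that met the paper's criteria was *Slc25a3_1*, named for the phosphate carrier that feeds ATP synthesis, a kind of protein that the Tim22 channel inserts. It averaged 41.8 ± 2.74 normalized CPM in the irradiated libraries and 71.0 ± 28.2 normalized CPM in the non-irradiated libraries (SD, n = 3 libraries each). On the log2 scale the fold change was -0.76 with a standard error of 0.30 and an adjusted p of 0.213 in edgeR. Its groups overlapped, since non-irradiated replicate 3 had 39.4 CPM. The more abundant *Slc25a3_3* averaged 684 ± 40.7 CPM in the irradiated and 783 ± 15.8 CPM in the non-irradiated libraries (log2 fold change -0.19, adjusted p = 0.434 in edgeR). *Slc25a3_2* and *Slc25a45_0* had too few counts to be tested.

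*Brp44l*, a subunit of the mitochondrial pyruvate carrier, had a log2 fold change of -0.51 (adjusted p = 0.299 in edgeR). Among the 5 tested matrix enzymes, 4 had values below 0 and 0 had an adjusted p under 0.05. *Got2_0*, a mitochondrial aspartate aminotransferase, was at -0.43 (adjusted p = 0.289 in edgeR). *Scsalpha_1*, named for a subunit of succinyl-CoA synthetase, was at -0.29 (adjusted p = 0.309 in edgeR). *Pdk*, the kinase that switches off pyruvate dehydrogenase, had 309, 295 and 311 CPM in the irradiated libraries, against 250, 257 and 232 CPM in the non-irradiated libraries. Its log2 fold change of 0.31 had an adjusted p of 0.207 in edgeR and was below the fold threshold of the paper. *Sod2_1*, named for the manganese superoxide dismutase of the matrix, was at -0.35 (adjusted p = 0.22 in edgeR), and *Hsp60*, the folding chamber for imported proteins, at 0.04.

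The remaining tested groups stayed close to 0. The 4 genes of mitochondrial translation, *Aats-ala-m*, *Iars2_1*, *Nars2_0* and *Tufm_0*, had log2 fold changes between -0.19 and 0.01 with a median of -0.13. The 4 genes of coenzyme Q and electron entry, *Coq2_0*, *Coq2_1*, *Coq3_1* and *Dhod*, lay between -0.13 and 0.18 with a median of -0.01. No gene of either group met a threshold.

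**Figure D2:**
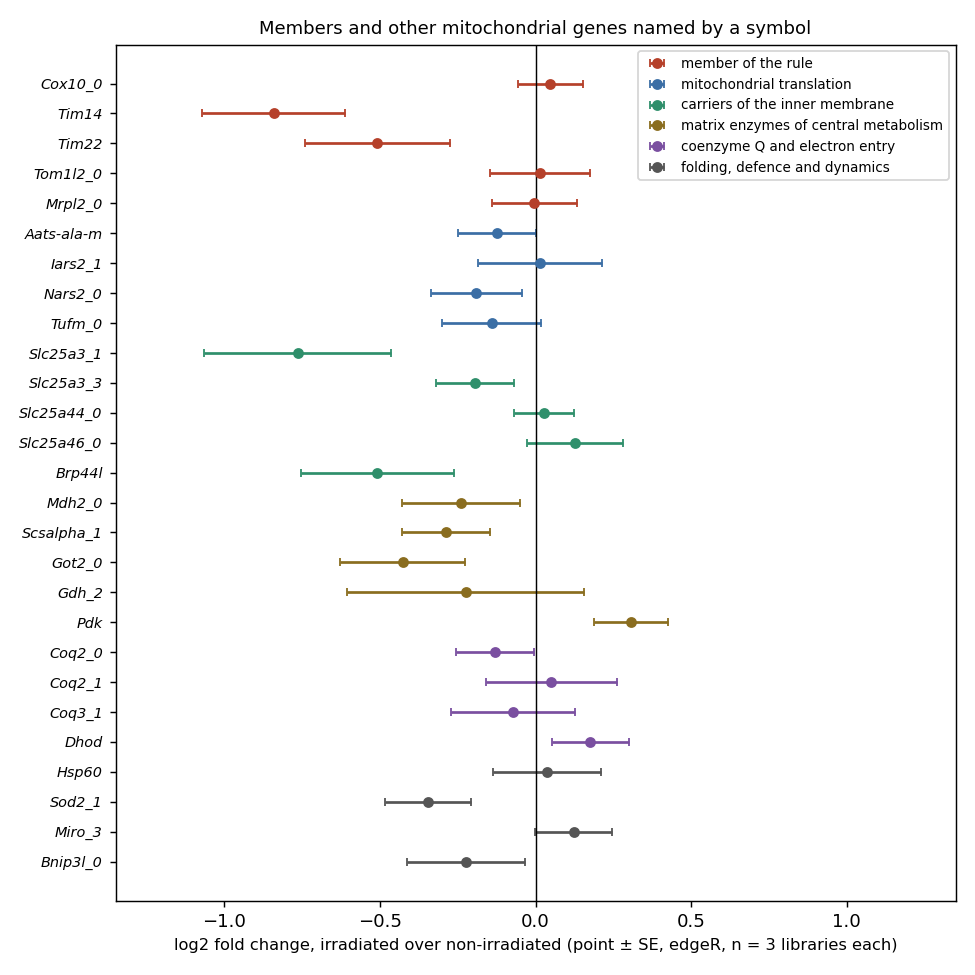
Log2 fold change (irradiated over non-irradiated, horizontal axis, point ± standard error from edgeR, 3 libraries in each group) of the 5 tested members and of 22 other mitochondrial genes named by a symbol, coloured by group. Tim14 at -0.84 and Slc25a3_1 at -0.76 lie farthest from 0, and no gene shown had an adjusted p under 0.05.

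The estimates of *Tim14* and *Tim22* were followed through every setting of the test. *Tim14* lay between -1.04 without irradiated replicate 3 and -0.70 without irradiated replicate 2 on the log2 scale, with an unadjusted p from 0.00355 to 0.0313 and an adjusted p from 0.0465 to 0.276 over 16 alternatives. Its adjusted p was under 0.05 in 1 of the 16, DESeq2. *Tim22* lay between -0.68 and -0.33, and 2 of the 16 alternatives gave an unadjusted p under 0.05.

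**Figure D3:**
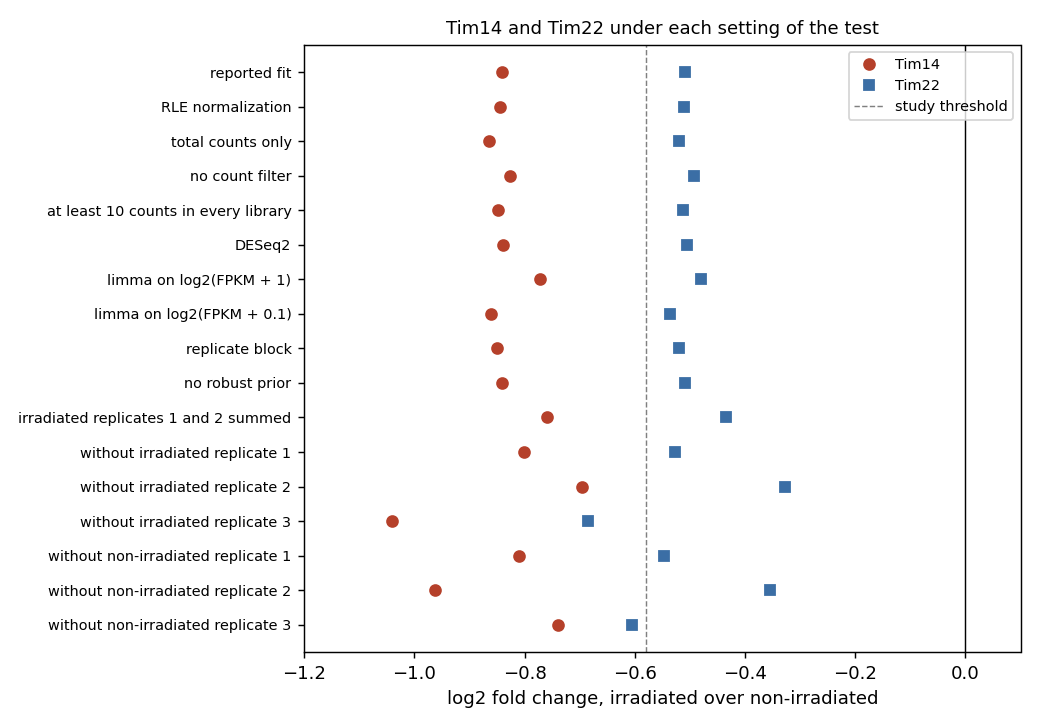
Log2 fold change (irradiated over non-irradiated, horizontal axis) of Tim14 (circles) and Tim22 (squares) in the reported fit and in 16 alternatives (vertical axis), with the fold threshold of the paper as a dashed line. Tim14 lies beyond that line throughout, between -1.04 and -0.70, and Tim22 lies between -0.68 and -0.33.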

How the data were processed

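RNA-seq was made from 3 irradiated and 3 non-irradiated pools of larvae with poly-A selection and paired-end reads of 150 bp. The authors filtered reads with Perl scripts, aligned them with HISAT2 and counted them with HTSeq, whose version differs between the sources. The deposited counts are whole numbers per gene. They also deposited FPKM values, which equal the count divided by library total and 1 length per gene. The strand setting and the treatment of reads on overlapping genes are not given in the sources used here.

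The main test was glmQLFTest after a robust glmQLFit in edgeR 4.0.16 under R 4.3.3. Genes were filtered with filterByExpr, libraries were scaled by TMM, and p-values were adjusted by Benjamini-Hochberg over 9768 genes. Alternatives were DESeq2 (version 1.42.0), limma (version 3.58.1) on log2(FPKM + 1) and log2(FPKM + 0.1), other scaling and filters, a replicate block, no robust prior, irradiated replicates 1 and 2 summed, and each library left out. Standard errors are the fold change divided by the square root of F. The scripts were tested on simulated counts. All 7 members are named. Members and lists were chosen with earlier results of these data known, and the 17 added mitochondrial genes from the symbols in the table. A further gene is not reported here. Overlap and neighbours come from another assembly than the authors' one, in which all 7 members were found, so no coordinates are given. P-values, standard errors and intervals of the tests measure the spread between these libraries. Irradiated replicates 1 and 2 were nearly alike, so the spread between irradiated pools may be understated and p-values may be too small.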

Additional observations from a re-analysis of the deposited data

How the results depend on the processing

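No member was higher by either rule in any setting. Members lower at an adjusted p under 0.05 numbered 0 in edgeR and limma and 1 with DESeq2. Members lower by the paper's criteria numbered 1, with a range of 1 to 2 when each library was left out in turn (2 without irradiated replicate 3, Tim14 and Tim22) and 0 at a log2 fold change of at least 1. The log2 fold change of Mrpl2_0 changed sign to 0.0113 without a count filter, 0.0062 with the replicate block and 0.0038 with irradiated replicates 1 and 2 summed, and ran from -0.12 to 0.084 over the libraries left out. That of Tom1l2_0 ran from -0.068 to 0.19 in the same way. Neither passed a threshold, and the cause was not tested.

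Libraries of the same replicate number did not deviate together (correlations -0.01, -0.10 and -0.15), none correlated best with its own number, and with the replicate block 0 members were called at an adjusted p and 1 was lower by the paper's criteria (Tim14, log2 fold change -0.85). The block gave 89 calls over all genes, against 365 without it. With the 2 nearly alike irradiated libraries summed there were 25, with DESeq2 1034, and with 1 library left out 21 to 301. Genes with few counts, such as Tom40_1 and Mrpl4_2, allow no comparison.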

Other observations

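Mdh2_1, named for a mitochondrial malate dehydrogenase, had the same sparse counts as Tom40_1, with 0, 0 and 2 in the irradiated libraries and 0 in each non-irradiated library, while Mdh2_0 had 12320, 13016 and 10752 counts in the irradiated libraries and 8927, 11781 and 14770 in the non-irradiated libraries. These genes were paired after their values were seen. Mdh2_1 and Tom40_1 had at most 2 counts in any library, so no fold is given for either.

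The gene beside Mrpl4_2 in assembly idZeuCucr1.2, LOC105218185, had 38, 36 and 118 counts in the irradiated libraries and 7, 12 and 7 in the non-irradiated libraries. Its log2 fold change was 2.58 with a standard error of 0.61 (adjusted p = 0.0660 in edgeR). Its groups did not overlap, with irradiated higher, as in 15.0% of all tested genes. A gene beside Mrpl2_0, LOC105208385, went the other way, at -1.13 (adjusted p = 0.135 in edgeR), and its groups overlapped. Both genes were singled out after their values were seen. The sources used here give LOC105218185 no name.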
